A study of Homo sapiens with 4 samples.

Results

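RNA of vimentin and 9 keratins was followed in BT-474, an established luminal B-like breast cancer cell line, with and without recombinant NRP-1. The 10 genes were named by their symbols, VIM, KRT7, KRT8, KRT15, KRT18, KRT19, KRT23, KRT80, KRT81 and KRT86. They were chosen with earlier results of these data known. Each was found by its NCBI Gene ID among 18882 gene IDs that had reads. The control group is wild-type BT-474 (2 libraries, replicates 1 and 2). The second group, BT-474 NRP-1 (NRP-1 cells), was stably transfected with an NRP-1 cDNA in the pPTuner IRES2 plasmid and selected with Geneticin (2 libraries, replicates 2 and 3, as numbered in the labels). Both groups were grown in RPMI medium with serum. Transfected clones were isolated, but the sources used here do not give the clone behind each library or say that the replicates were separate cultures, so p-values measure only the spread between these samples. The controls carry no plasmid and no empty-vector library was analysed here, so the effects of NRP-1, of transfection and selection, and of the clone cannot be told apart.

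Intermediate filaments are rope-like polymers that give a cell mechanical strength. Keratins are obligate partners, in which a type I keratin pairs with a type II keratin. Luminal cells of the breast are known for the type II keratins KRT7 and KRT8 with the type I keratins KRT18 and KRT19, and basal cells for KRT5 and KRT14. Vimentin, encoded by VIM, is a type III protein that polymerises with itself, is typical of mesenchymal cells, and is widely used as a marker of epithelial-mesenchymal transition.

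The stretch of VIM that the study's RT-qPCR primers amplify is shown because vimentin RNA was the intermediate filament readout of that study by another assay, which was not analysed here. It covers 59 bases of coding sequence in exon 1 of VIM-201 (GENCODE 29), at chr10:17229753-17229811 on the plus strand of GRCh38, and capitals mark the primer sites.
VIM amplicon: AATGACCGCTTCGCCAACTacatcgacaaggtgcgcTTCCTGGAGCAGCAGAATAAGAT
The forward primer also matched a transcript of DES, the muscle type III filament desmin, over its full 19 bases, while the 23-base reverse primer matched VIM alone. No reads of DES were listed in any of the 4 libraries.

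The hair keratins KRT81 and KRT86 are neighbours among coding genes in GRCh38.p14, with KRT83 next to KRT81, and their coding sequences are 89.6% identical over the alignment of KRT81 with KRT86. Over a whole transcript in GENCODE 29, 44.6% of the 50-base windows of KRT81 were also found in a transcript of another gene, with KRT86 the most frequent. The share was 40.5% for KRT86, whose transcript there has another RefSeq accession than the one in the files. It was 32.7% for KRT8 and 31.8% for KRT18, with pseudogenes (KRT8P3 and KRT18P11) as the leading matches. KRT19 reached 1.79%, KRT7 0.997%, KRT80 0.416% and KRT15 0.328%, and VIM and KRT23 shared no window. By this measure VIM and KRT23 were the most distinct members and KRT81 and KRT86 the least.

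**Figure D1:**
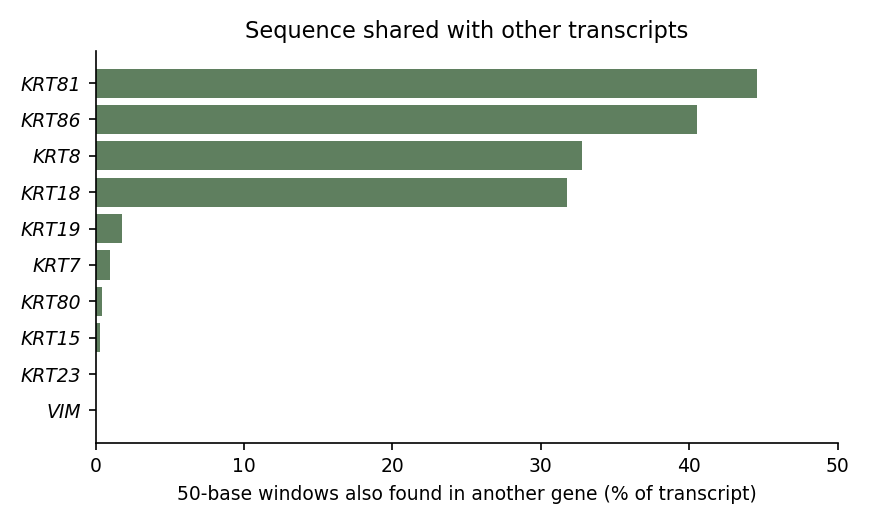
Percentage of 50-base windows of 1 transcript per gene (x axis) that also occur in a GENCODE 29 transcript of another gene, for each of the 10 genes (y axis). KRT81 (44.6%) and KRT86 (40.5%) share most, and VIM and KRT23 share none.

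The libraries summed to between 8243595 and 8448926 expected reads. NRP1 itself had 7 and 8 reads in the controls, and 103 and 62 in NRP-1 cells (log2 fold change 3.38, standard error [SE] 0.42, adjusted p = 0.044, edgeR). The edgeR calls given here, those of NRP1, KRT6B and CD68, were lost with either control library left out, as were all others. DESeq2 was not run with a library left out. The NRP-1 libraries lay further apart than the controls, with a median absolute log2 ratio between replicates of 0.25 against 0.11 over 10383 genes with a mean of at least 10 CPM. All 16 luminal epithelial markers of the list used here had more than 3 reads in a library, and so did 10 of 15 basal and myoepithelial markers. Of the defining basal markers, KRT14 had no read, and KRT5 had 0 reads in 3 libraries and 1 read in NRP-1 replicate 3.

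Levels between genes were compared as FPKM, fragments scaled to transcript length and library depth. The 4 luminal keratins stood far above the other members in every library. KRT19, a type I keratin, had 1173 and 1122 FPKM in control replicates 1 and 2 and 1431 and 1248 FPKM in NRP-1 replicates 2 and 3. KRT8, a type II keratin that pairs with KRT18, had 1022 and 1008 FPKM against 1322 and 1204 FPKM. KRT19 was above KRT8 in each of the 4 libraries.

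KRT18, the usual type I partner of KRT8, had 658 and 611 FPKM in the controls, and 783 and 744 FPKM in NRP-1 cells. KRT7, a type II keratin of glandular epithelium, had 625 and 627 FPKM against 839 and 788 FPKM. KRT7 lay between the controls of KRT18 and just above KRT18 in both NRP-1 libraries. Together KRT7, KRT8, KRT18 and KRT19 made up 98.3% ± 0.0185 (SD, n = 2) of all keratin FPKM in the controls, against 98.1% ± 0.0553 (SD, n = 2) in NRP-1 cells.

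The next levels were lower by more than 10-fold. KRT15, a type I keratin known from basal layers of stratified epithelium, had 21.6 and 17.9 FPKM in control cells against 34.9 and 37.9 FPKM. KRT80, a type II keratin, had 10.1 and 8.30 FPKM against 13.5 and 12.4 FPKM. KRT23, a type I keratin, had 4.49 and 4.06 FPKM against 4.14 and 2.52 FPKM, so its groups overlapped on this scale.

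VIM had 3.89 and 2.69 FPKM in the controls, and 20.6 and 8.10 FPKM in NRP-1 cells. In control cells it ranked number 8 of the 10, below KRT23 in both libraries, and by the mean of the NRP-1 libraries it ranked number 6. Its NRP-1 values spanned those of KRT80, so the order of these neighbours is not resolved there. KRT81 and KRT86 were lowest, at 0.88 and 1.34 FPKM and 0.89 and 0.85 FPKM in control cells, ranges that overlapped. In NRP-1 cells KRT81 had 1.93 and 1.56 FPKM and KRT86 0.69 and 0.44 FPKM. For comparison, NRP1 had 0.15 and 0.17 FPKM in the controls, and 2.46 and 1.3 FPKM in NRP-1 replicates 2 and 3.

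**Figure D2:**
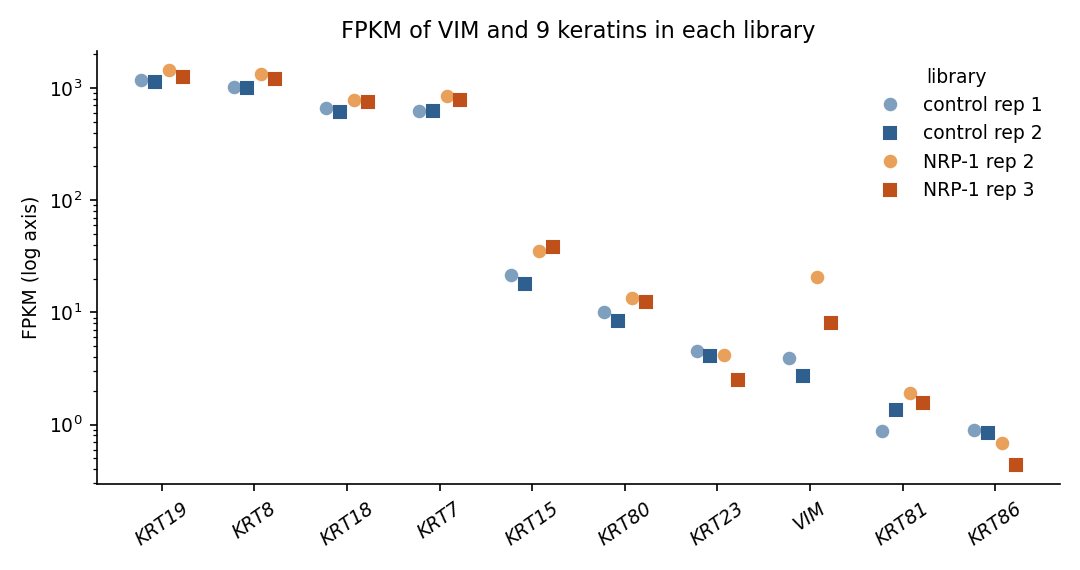
FPKM (y axis, log scale) of VIM and the 9 keratins (x axis, ordered by control mean) in each of the 4 libraries, 1 point per library. KRT19, KRT8, KRT18 and KRT7 lie between 611 and 1431 FPKM, and VIM lies at 3.89 and 2.69 FPKM in control cells against 20.6 and 8.10 FPKM in NRP-1 cells.

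Reads were compared between groups by the quasi-likelihood test of edgeR, with Benjamini-Hochberg adjustment across all 14298 genes tested. None of the 10 members, 0 of 10, had an adjusted p under 0.05, against 1.09% of all tested genes (0.413% higher in NRP-1 cells). At an unadjusted p under 0.05 there were 4 of 10, VIM, KRT15, KRT80 and KRT7, all higher in NRP-1 cells, against 22.9% of all tested genes in either direction and 10.8% in that direction. DESeq2 called 2 of the 10 higher at an adjusted p under 0.05, VIM and KRT15, against 2.68% of 14089 genes in that direction and 6.36% in either. For limma the members called were 0 on log2(FPKM + 1), against 0.0412% of genes, and 0 on log2(FPKM + 0.1), against 0.151%. In CPM after TMM normalization, both NRP-1 libraries lay above both controls for 8 members, against 27.9% of tested genes, and below both for KRT23 and KRT86, against 28.3%, so that all 10 were without overlap on this scale, KRT23 narrowly, against 56.2%. Fits with NRP-1 replicate 2 or 3 left out hold 1 NRP-1 library, so their calls are not counted here. The median log2 fold change of the members was 0.31, beside 0.02 over all tested genes. Because the members were chosen with earlier results of these data known, these shares and medians are descriptions, not a test of the set. Among the 4 tested keratins outside the members, 1 lay above both controls and 1 below, and the median log2 fold change was 0.08. For a single value, 2 libraries a group allow an exact permutation p (two-sided) of 0.333 at the lowest.

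VIM had the largest difference of the members. It had 69 and 48 reads in control replicates 1 and 2, and 371 and 147 in NRP-1 replicates 2 and 3. Both NRP-1 values exceeded both controls, and NRP-1 replicate 2 stood 2.53-fold above replicate 3 in CPM. The group means were 7.17 ± 1.88 CPM (SD, n = 2) and 30.4 ± 18.6 CPM (SD, n = 2). The log2 fold change was 2.08 (SE 0.48, adjusted p = 0.0821, edgeR), which is 4.24-fold. DESeq2 gave an adjusted p of 0.000294 for a log2 fold change of 2.09.

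The spread of VIM between the NRP-1 libraries was larger than for most genes. An absolute log2 ratio above that of VIM, 1.33, was found for 1.64% of the 10383 genes with a mean of at least 10 CPM. With NRP-1 replicate 2 left out the log2 fold change was 1.26, and with NRP-1 replicate 3 left out it was 2.60. In both of these fits the spread comes from the controls alone. Between the control libraries the same ratio of VIM was 0.53.

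Even in NRP-1 cells vimentin RNA was a small amount beside the luminal keratins. Per 1000 FPKM of KRT18, VIM had 5.91 and 4.40 FPKM in control replicates 1 and 2, and 26.3 and 10.9 FPKM in NRP-1 replicates 2 and 3. Thus KRT18 exceeded VIM by between 169 and 227 times in the controls, and by 38.1 and 91.8 times in NRP-1 cells.

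The genes whose profile over the 4 libraries was closest to that of VIM, by Euclidean distance of centred log2 CPM among 10382 other genes, were PRUNE2, PLK2 and DST. PRUNE2 had 53 and 54 reads in the controls, and 295 and 129 in NRP-1 cells (distance 0.43). PLK2, a polo-like kinase, had 277 and 346 against 1614 and 674 (distance 0.65). DST, a plakin that links filaments to other parts of the cell, had 285 and 295 against 1191 and 714 (distance 0.67). Of the 8 listed keratins with a mean of at least 10 CPM, KRT4 was nearest, at distance 1.26 and rank 61, and of the member keratins KRT15, at distance 1.52 and rank 175.

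KRT15 had the next largest difference. It had 331 and 276 reads in the controls against 543 and 594 in NRP-1 cells. In CPM this was 37.2 ± 5.09 (SD, n = 2) against 66.8 ± 4.17 (SD, n = 2), and the groups did not overlap. The log2 fold change was 0.85 (SE 0.16, adjusted p = 0.0643, edgeR), or 1.80-fold. Leaving out any single library gave values from 0.71 to 0.99. DESeq2 gave an adjusted p of 0.009. Here NRP-1 replicate 3 was the higher library, in contrast to VIM. KRT19, its coding neighbour in GRCh38.p14, had a log2 fold change of 0.19 (SE 0.14, adjusted p = 0.465, edgeR), and KRT15 per 1000 FPKM of KRT19 was 18.4 and 15.95 in control cells against 24.4 and 30.4.

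**Figure D3:**
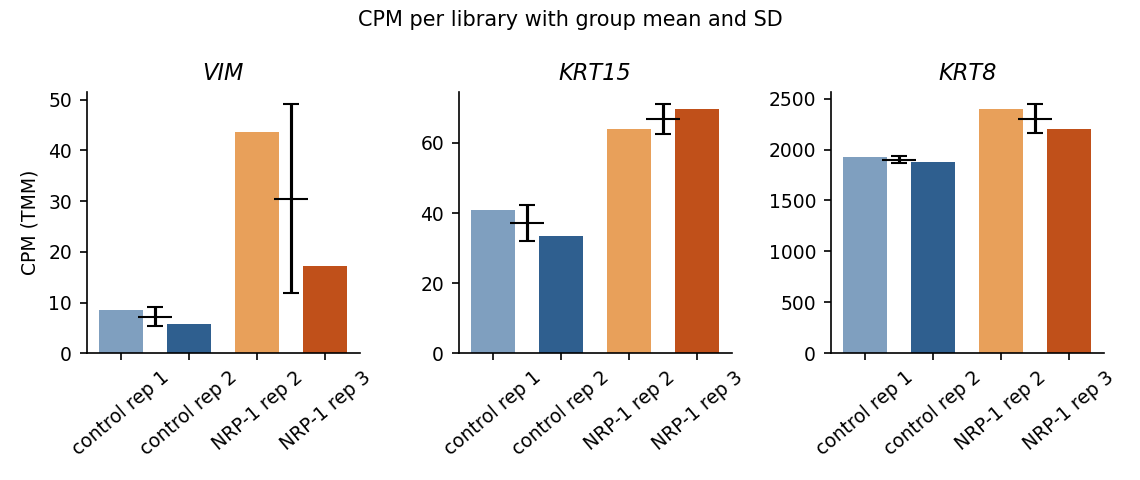
CPM after TMM normalization (y axes, from 0) of VIM, KRT15 and KRT8 in each library (bars), with the group mean and SD (black, n = 2). The NRP-1 mean of VIM, 30.4 ± 18.6, rests on libraries that differ 2.53-fold, whereas those of KRT15, 66.8 ± 4.17, lie close together.

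The luminal keratins differed by less, and in the same direction. KRT7 had 9002 and 9096 reads in the controls, and 12277 and 11620 in NRP-1 cells. Its log2 fold change was 0.34 (SE 0.12, adjusted p = 0.18, edgeR), or 1.27-fold. KRT8 had 15611 and 15449 reads against 20419 and 18735, and its log2 fold change was 0.27 (SE 0.13, adjusted p = 0.276, edgeR). For KRT7 and KRT8 the NRP-1 libraries lay clear of the controls, yet neither edgeR, DESeq2 nor limma called either gene with all 4 libraries.

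KRT18 had 7990 and 7480 reads in the controls against 9677 and 9250, and its log2 fold change was 0.23 (SE 0.13, adjusted p = 0.332, edgeR). KRT19 had 14302 and 13779 against 17735 and 15577. The files list 1 pseudogene each of KRT8 and KRT18 with reads. KRT8P41 had at most 3 reads and KRT18P55 at most 5 in any library. No reads were listed under KRT8P3 or KRT18P11, which share the most windows with KRT8 and KRT18. How such shared reads were assigned was not tested.

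KRT8 over KRT18, as a ratio of FPKM, was 1.55 and 1.65 in the controls, and 1.69 and 1.62 in NRP-1 cells, so the groups overlapped. Summed over all keratins, type II over type I was 0.892 and 0.937 in control cells against 0.965 and 0.982, without overlap (exact two-sided permutation p = 0.333, the smallest possible). Keratins took 0.574% ± 0.0130 (SD, n = 2) of all reads in the controls, against 0.703% ± 0.0452 (SD, n = 2) in NRP-1 cells. In bulk RNA, more RNA per cell and more cells that express a gene cannot be told apart.

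KRT80, which is expressed during epithelial differentiation, had 325 and 268 reads in the controls against 443 and 409 in NRP-1 cells. Its log2 fold change was 0.46 (SE 0.16, adjusted p = 0.169, edgeR). KRT23 had 80 and 73 reads against 75 and 46, and a log2 fold change of -0.40 (SE 0.31, adjusted p = 0.484, edgeR). The KRT23 value rested on NRP-1 replicate 3, as it was -0.09 without that library and -0.80 when NRP-1 replicate 2 was left out.

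KRT81 and KRT86 pointed in opposite directions at few reads. KRT81 had 14 and 21 reads in the controls, and 31 and 25 in NRP-1 cells (log2 fold change 0.62, SE 0.39, adjusted p = 0.398, edgeR). KRT86 had 15 and 15 against 12 and 8 (log2 fold change -0.64, SE 0.45, adjusted p = 0.446, edgeR). Given the shared sequence described above, their reads were also summed, which gave 29 and 36 in the controls, and 43 and 33 in NRP-1 cells, with overlap. The sum had a log2 fold change of 0.17 (SE 0.32, adjusted p = 0.798, edgeR), and with the 9 and 12 against 9 and 3 reads of KRT83 added it was -0.03. Within the pair, KRT81 took 48.3% and 58.3% of the reads in the controls, and 72.1% and 75.8% in NRP-1 cells. How the deposited estimates divided shared reads between these genes was not tested.

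**Figure D4:**
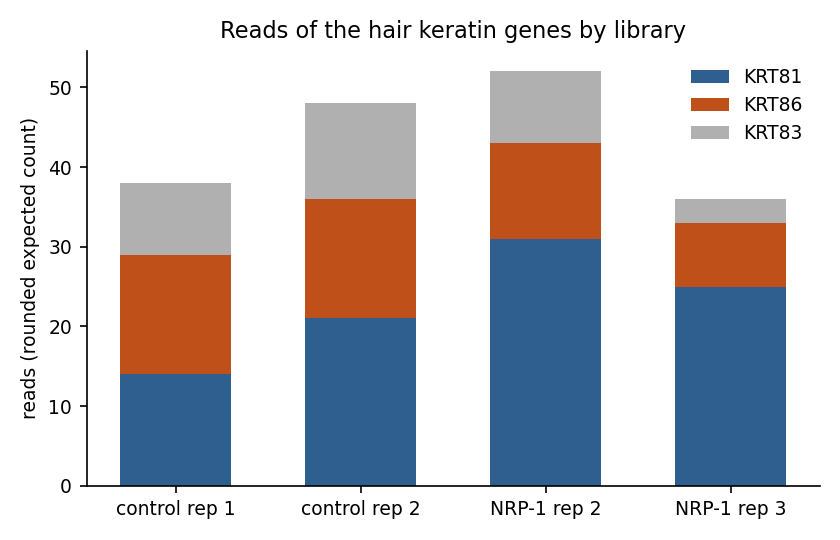
Reads (y axis, rounded expected counts, from 0) of KRT81, KRT86 and KRT83, stacked for each library (x axis). The 3 genes together had 38 and 48 reads in the controls, and 52 and 36 in NRP-1 cells, with overlap, while the part assigned to KRT81 was 14 and 21 against 31 and 25.

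**Figure D5:**
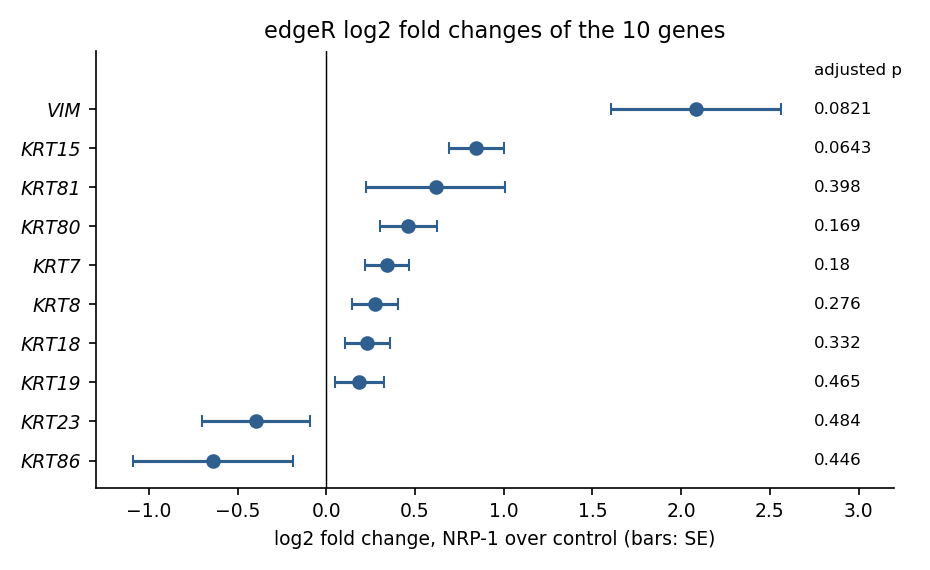
Log2 fold changes of the 10 genes from edgeR (x axis, BT-474 NRP-1 over control), with standard errors as bars and the adjusted p at the right. VIM at 2.08 and KRT15 at 0.85 have the lowest adjusted p-values, 0.0821 and 0.0643, and KRT23 and KRT86 lie below 0.

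Of 54 keratins in lists of type I and type II genes, 34 had a read in any library and 13 had enough to be tested, 9 of them members. Among all 13, 10 were higher and 3 lower in NRP-1 cells, beside 7401 higher and 6897 lower of all 14298 tested genes, and edgeR called 1. This was KRT6B, a type II keratin of stressed and stratified epithelium, with 68 and 80 reads in the controls against 2 and 8, lower in both NRP-1 libraries. Its log2 fold change was -3.91 (SE 0.52, adjusted p = 0.0442, edgeR), against 0.678% of tested genes called lower. Summed with its close relatives KRT6A and KRT6C, an alternative added after the data were seen, the log2 fold change was -3.44 (adjusted p = 0.0522, edgeR). KRT4, of mucosal epithelium, had 52 and 65 reads against 162 and 73 (log2 fold change 0.95, adjusted p = 0.239), and KRT10, of upper epidermis, had 209 and 237 against 233 and 280 (log2 fold change 0.14, adjusted p = 0.669). The antisense gene KRT10-AS1 had 74 and 49 reads against 47 and 42, and no strand is stated for the counts, so that reads of this pair cannot be told apart.

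All 6 tested genes among 15 other intermediate filament genes, VIM included, had log2 fold changes above 0, against 7401 of all 14298 tested genes. None was called by edgeR, against 1.09% of all. DESeq2 called 3, against 6.36%, and 4 had an unadjusted p under 0.05, against 22.9%. Besides VIM, the listed genes with a mean of at least 5 FPKM were the lamins of the nuclear envelope. LMNB1 had 328 and 394 reads in the controls against 502 and 1245 (log2 fold change 1.22, adjusted p = 0.158, edgeR). LMNB2 had 648 and 858 against 964 and 2241 (log2 fold change 1.03, adjusted p = 0.19). For both, NRP-1 replicate 3 was the higher library, the reverse of VIM. LMNA had 2232 and 2251 against 2914 and 3281 (log2 fold change 0.41, adjusted p = 0.134).

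Of 21 tested genes of plakins, desmosomes and hemidesmosomes, the anchors of keratin filaments, edgeR called 0 and DESeq2 1, DST, and 5 had an unadjusted p under 0.05. Their median log2 fold change was 0.23, with 14 above 0. The 7 genes of 14-3-3 proteins, which bind phosphorylated keratins, had a median of 0.40, and edgeR called 0, DESeq2 1, with 4 at an unadjusted p under 0.05. Of all tested genes 22.9% had such a p, edgeR called 1.09% and DESeq2 6.36%, and the median was 0.02.

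Other mesenchymal markers were compared beside VIM. Of 16 listed, 8 were tested, and 6 had log2 fold changes above 0. The 2 below 0 were FN1 at -0.31 and TWIST1 at -0.30 (adjusted p = 0.458 and 0.691, edgeR). By edgeR 0 were called, and 3 had an unadjusted p under 0.05, against 22.9% of all tested genes. DESeq2 called 1, against 6.36%. The summed level of the listed markers was 16.7 to 18.3 FPKM in the controls, and 32.6 to 36.9 FPKM in NRP-1 cells. Most of this difference lay in S100A4, with 6.26 and 6.22 FPKM in the controls against 19.15 and 16.08 FPKM, and TGFBI, with 0.86 and 1.54 against 6.27 and 3.79 FPKM (adjusted p = 0.068 and 0.0684, edgeR), both named after their values were seen. Of the transcription factors on the list, TWIST1 had 16 to 25 reads per library, ZEB1 10 to 20 and SNAI1 1 to 9, while ZEB2, SNAI2 and TWIST2 had at most 2 and FOXC2 had 0. Fibroblasts also express vimentin, and any part of them in the VIM values was not tested. Of 10 fibroblast markers DCN, PDGFRA, PDGFRB, THY1, FAP and POSTN had no read in any library. COL3A1 had 6 reads, all in NRP-1 replicate 3, and COL1A2 and LUM had at most 1 read in any library. The summed level of the 10, almost all from COL1A1, was 34.97 to 35.3 FPKM in the controls against 27.0 to 30.1 FPKM in NRP-1 cells. Immune markers summed to 60.6 to 68.4 FPKM against 48.9 to 51.1 FPKM, and endothelial markers to 0.91 to 1.73 FPKM against 1.71 to 2.17 FPKM. Most of the immune sum was LYZ, the secreted enzyme lysozyme, at 41.35 to 46.35 FPKM, and the leukocyte marker PTPRC had 9 to 17 reads in each library, while CD3E, CD14 and MS4A1 had 0 reads. From the immune list edgeR called CD68, a lysosomal protein, with 320 and 281 reads against 107 and 89 (log2 fold change -1.67, adjusted p = 0.0423).

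Epithelial marker lists were compared beside the keratins. The 16 luminal markers had a median log2 fold change of -0.15, with 6 above 0 and 10 below. The lowest was -1.62 for MUC1 and the highest 1.34 for GATA3 (adjusted p = 0.068 and 0.126, edgeR). Among the 16, edgeR called 0 and DESeq2 3, and 7 had an unadjusted p under 0.05. Of 15 basal and myoepithelial markers 9 were tested and only KRT6B was called by edgeR and DESeq2. Of 19 squamous and cornified envelope genes edgeR tested 9, with a median of -0.25, and called 0 (4 at an unadjusted p under 0.05). DESeq2 gave an adjusted p for 8 of the squamous genes and called 1. Of all tested genes, 22.9% had an unadjusted p under 0.05, edgeR called 1.09% and DESeq2 6.36%. Luminal markers summed to 2238 to 2248 FPKM in controls and 1631 to 2301 FPKM in NRP-1 cells, basal markers to 52.6 to 53.9 against 39.7 to 46.9 FPKM, and squamous genes to 45.7 to 47.9 against 24.4 to 29.03 FPKM. The part of these marker genes in the values of VIM and the keratins was not tested.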

How the data were processed

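RNA of 2 control and 2 BT-474 NRP-1 libraries was sequenced. The deposited values are an expected count per gene and library, not normalized and for 32.8% of values not whole, and an FPKM that the authors scaled to transcript length and mapped reads. The submitters' processing notes name HISAT2 2.0.1, Bowtie2 2.2.5 and RSEM, and the builds GRCh38 and hg19 without roles, so coordinates come only from GENCODE 29 (GRCh38). The transcript lengths (other values) and RefSeq accessions served for matching. A deposited table of the authors' own comparison was not used. Of 18882 gene IDs, 99.4% matched a RefSeq symbol (GRCh38.p14). Absent genes were set to 0 reads.

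After rounding, reads were fitted by group alone in edgeR 4.0.16 (R 4.3.3) through filterByExpr, TMM, glmQLFit and glmQLFTest. As standard error was taken the absolute log2 fold change over the square root of F. Alternatives were DESeq2 1.42.0, limma 3.58.1 (mean FPKM 0.5 or higher), omission of TMM, of the filter or of single libraries, and sums of near-identical genes. The scripts were tested on simulated data with the same spread in both groups, so the wider spread of the NRP-1 libraries was not covered. Counting error at these depths, 8243595 to 8448926 reads, limits genes such as KRT86 most. Exact permutation tests used scipy 1.17.1. Named genes were the members, NRP1, other filament genes past an adjusted p of 0.05, with a mean of at least 5 FPKM or among the 3 highest or lowest keratins, called genes of the other lists, and the 3 genes most like VIM. DES and the marker genes named without a call were added after their values were seen. Members and lists were chosen with earlier results of these data known. A marker gene and aligned hair keratin sequences are not reported here.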

Additional observations from a re-analysis of the deposited data

How the results depend on the processing

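No paired analysis was possible because only replicate number 2 occurs in both groups. The direction of every member was the same with DESeq2, limma at either pseudocount, library sizes without TMM and no filter, and with each library left out. DESeq2 moved VIM (2.09) and KRT15 (0.85) past the threshold. Summing KRT81 and KRT86 turned the sign of KRT86 (0.17), and adding KRT83, chosen after seeing the data, turned that of KRT81 (-0.025). The members called, 0 with edgeR, were 2 with DESeq2 and from 0 (without either control) to 7 (without NRP-1 replicate 3) with a library left out. The listed keratins called, 1 with edgeR, were 2 with DESeq2, 0 with limma at either pseudocount, 0 without a filter, and from 0 to 8 with a library left out. Of all genes, where edgeR called 156, DESeq2 called 896, limma 6 with log2(FPKM + 1) and 22 with log2(FPKM + 0.1), and no filter 0, with 0 to 5414 when a library was left out. The cause was not tested, except that the design sets where the spread comes from. Without an NRP-1 library it comes from the control pair alone, and the lone NRP-1 library is assumed to vary like it. Without a control library it comes from the NRP-1 pair alone, which lay further apart than the controls. With each library left out, the log2 fold change ranged from 1.26 to 2.60 for VIM, 0.71 to 0.99 for KRT15, 0.29 to 0.38 for KRT7, 0.20 to 0.34 for KRT8, 0.32 to 0.62 for KRT80, 0.18 to 0.29 for KRT18, 0.080 to 0.28 for KRT19, 0.36 to 0.93 for KRT81, -0.96 to -0.38 for KRT86 and -0.80 to -0.086 for KRT23. KRT6B kept its sign in these fits, but its call was lost with limma, without the filter, summed with KRT6A and KRT6C, and without either control.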
